A study of Homo sapiens with 4 samples.

Results

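Nucleotide synthesis enzymes were followed in RNA-seq libraries of UMSCC74B cells, an established line labelled as head and neck squamous cell carcinoma (HNSCC). The 9 genes, taken by name, were RRM1, RRM2, TYMS, TK1, DUT, CAD, UMPS, IMPDH2 and GART, out of 29655 gene names in the count tables. The 4 libraries comprised 2 of the genotype labelled WT with control shRNA and 2 of the genotype labelled PRMT5 KD with PRMT5 shRNA, all from total RNA of cells kept for 72 h after the plasmids were given. Both groups were therefore shRNA-treated, and the labels do not say how many shRNA constructs were used or whether libraries 1 and 2 of a group came from separate cultures. P-values thus measure the spread between these libraries, which may be technical.

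A cell makes DNA precursors in steps that these enzymes catalyse. CAD and UMPS build the pyrimidine ring up to UMP, while GART, a trifunctional enzyme, and IMPDH2 act in purine synthesis, IMPDH2 on the branch towards guanine nucleotides. Ribonucleotide reductase, made of the large subunit RRM1 and a small subunit (RRM2, or RRM2B in resting and stressed cells), turns ribonucleotides into deoxyribonucleotides. DUT removes dUTP and yields dUMP, TYMS methylates dUMP to dTMP, and TK1 salvages thymidine. RRM2, TYMS and TK1 are known as enzymes of S phase, the part of the cell cycle in which DNA is copied.

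Totals lay between 52185289 and 65964558 estimated counts per library, and 71.5% to 81.4% of them fell on protein-coding genes. Ribosomal RNA took 15.3% and 14.2% of the counts in control, against 26.2% and 18.02% under the PRMT5 KD label. PRMT5 itself, on chromosome 14 of GRCh38 (22920525 to 22929408, minus strand), stood at 94.3 and 84.2 CPM in control and at 132 and 150 CPM under the knockdown label, so the transcript was higher there and not lower (log2 fold change 0.66, with an SE, its standard error, of 0.12, FDR = 0.00543 in edgeR). Without control replicate 2 it was 0.58 and no longer passed the FDR. All directions below are therefore by label. The paper reports silencing by the PRMT5 shRNA on an immunoblot, which measures protein. Of 8 squamous markers, 7 (KRT5, KRT6A, KRT14, KRT17, SFN, EPCAM and CDH1) stayed under 100 counts in every library, so the defining markers of the labelled cell type were at or near 0. Only TP63 passed the filter, with 218 and 330 control counts against 83 and 144. Among the other 7, KRT14 had 0 and 0 control counts against 11 and 22, and KRT17 5 and 6 against 53 and 71. SFN had 3 and 5 against 28 and 86. EPCAM stood at 29 to 48 counts, CDH1 at 2 to 9, KRT5 at 0 to 4 and KRT6A at 0 to 1. All 5 fibroblast markers (COL1A1, COL1A2, DCN, LUM and PDGFRB) were present, with a summed 526 and 580 CPM in control against 85.3 and 93.0 CPM under the PRMT5 KD label, and all 5 were called lower. Their part in the results below was not tested. Of the other marker lists, the leukocyte list summed to 94.7 and 113 CPM in control and 153 and 170 CPM under the label, nearly all of it CD68, with PTPRC at 0 to 5 counts, and CD3E at 0 in all 4 libraries. The endothelial list summed to 10.1 and 14.0 CPM, then to 1.01 and 0.460 CPM.

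CPM below are counts per 1000000 on genes tested, scaled by edgeR's TMM factors, and RPKM divide them further by the length of the gene's canonical transcript in kilobases. A gene was called when edgeR's quasi-likelihood test gave an FDR under 0.05 (Benjamini-Hochberg over 11895 protein-coding genes) together with a log2 fold change of 0.5 or more in size. With 2 libraries against 2, an exact two-sided permutation test cannot go below p = 0.333, so each FDR comes from the model across all genes.

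The stretch before a start site is shown for the 3 members with the largest rise (RRM2, TYMS and TK1), for DUT, and for CAD, which was not called. RRM2, TK1 and DUT each had more than 1 annotated start. The DUT stretch shown held the letters of E2F sites in 2 places, and the windows of its other starts held none. Each is the 200 bases before an annotated RefSeq start (GRCh38.p14), written 5′ to 3′ on the gene's own strand: RRM2 at chr2:10122539-10122738 (plus), TYMS at chr18:657453-657652 (plus), TK1 at chr17:78187053-78187252 (minus), DUT at chr15:48331997-48332196 (plus) and CAD at chr2:27217169-27217368 (plus). Capitals mark the letters CCAAT (in reverse ATTGG), which NF-Y binds, and the E2F-type letters TTTCCCGC (in reverse GCGGGAAA) and TTTGGCGC, none of which is in the CAD stretch.
RRM2: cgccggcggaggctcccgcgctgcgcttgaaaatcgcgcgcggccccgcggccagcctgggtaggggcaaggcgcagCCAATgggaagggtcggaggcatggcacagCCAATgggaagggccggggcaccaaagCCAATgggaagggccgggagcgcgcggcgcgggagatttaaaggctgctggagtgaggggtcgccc
TYMS: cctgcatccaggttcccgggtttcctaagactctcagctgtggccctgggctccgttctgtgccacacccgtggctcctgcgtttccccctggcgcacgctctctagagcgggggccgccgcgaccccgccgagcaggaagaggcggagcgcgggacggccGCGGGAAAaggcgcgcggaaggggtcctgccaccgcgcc
TK1: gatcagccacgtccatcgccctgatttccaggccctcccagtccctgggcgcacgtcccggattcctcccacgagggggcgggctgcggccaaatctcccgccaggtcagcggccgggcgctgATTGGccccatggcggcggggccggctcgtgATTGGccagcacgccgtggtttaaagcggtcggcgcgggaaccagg
DUT: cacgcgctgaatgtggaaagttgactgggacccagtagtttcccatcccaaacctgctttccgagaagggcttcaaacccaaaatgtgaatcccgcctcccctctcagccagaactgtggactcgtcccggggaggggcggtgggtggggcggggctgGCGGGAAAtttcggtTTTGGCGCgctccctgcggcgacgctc
CAD: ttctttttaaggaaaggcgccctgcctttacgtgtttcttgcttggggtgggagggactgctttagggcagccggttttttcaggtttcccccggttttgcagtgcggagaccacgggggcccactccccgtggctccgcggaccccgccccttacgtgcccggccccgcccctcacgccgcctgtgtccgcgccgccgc

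RefSeq windows of 250 bases before to 50 after a start were at hand for 8 of the 9 genes, 15 windows in all. The RRM2 window held CCAAT 3 times, at 123, 93 and 66 bases before the start, each time inside the same 15 bases, agCCAATgggaaggg. A longer RRM2 transcript starts further upstream, so part of this stretch is transcribed in it. Windows with 3 or more CCAAT on either strand made up 3.26% of all 35116 windows and 3 of the members' 15, those 3 belonging to RRM2 and GART. CCAAT in any number occurred in 8 of the 15 windows (CAD, GART, RRM1, RRM2 and TK1), against 34.6% of all windows. The TK1 window had it in reverse at 77 and 46 bases before the start, and the RRM1 window had it once, at 28 bases.
One of 4 E2F-type words (TTTCCCGC, TTTGGCGC, TTTCGCGC or TTTGCCGC, both strands) was found in 3 of the 15 windows, those of TYMS, DUT and GART, against 3.31% of all windows. In TYMS it lay 39 bases before the start, in DUT 42 and 27 bases before it, and in GART 245 bases before it. The E-box CACGTG, the site of MYC and MAX, was in none of the members' windows and in 7.26% of all windows. The GC box GGGCGG was in 9 of the 15 windows, and in 15786 of all 35116. Windows of 1 gene can overlap, and a match of letters describes the window and does not show binding.

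Transcripts of the deoxynucleotide enzymes were higher under the PRMT5 KD label, most of all RRM2, which rose 10.2-fold. TYMS rose 6.59-fold, TK1 4.13-fold, RRM1 3.42-fold and DUT 1.69-fold. Of the 4 enzymes that make ribonucleotides, UMPS rose 1.97-fold and GART 1.48-fold, while CAD and IMPDH2 were not called. In all, 7 of the 9 members were called higher and 0 lower, where 21.2% of all genes tested were called higher and 24.4% lower. The median log2 fold change of the members was 0.98, against -0.01 over all genes tested. In RNA of whole cultures, more cells that express a gene cannot be told apart from more RNA per cell.

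**Figure D1:**
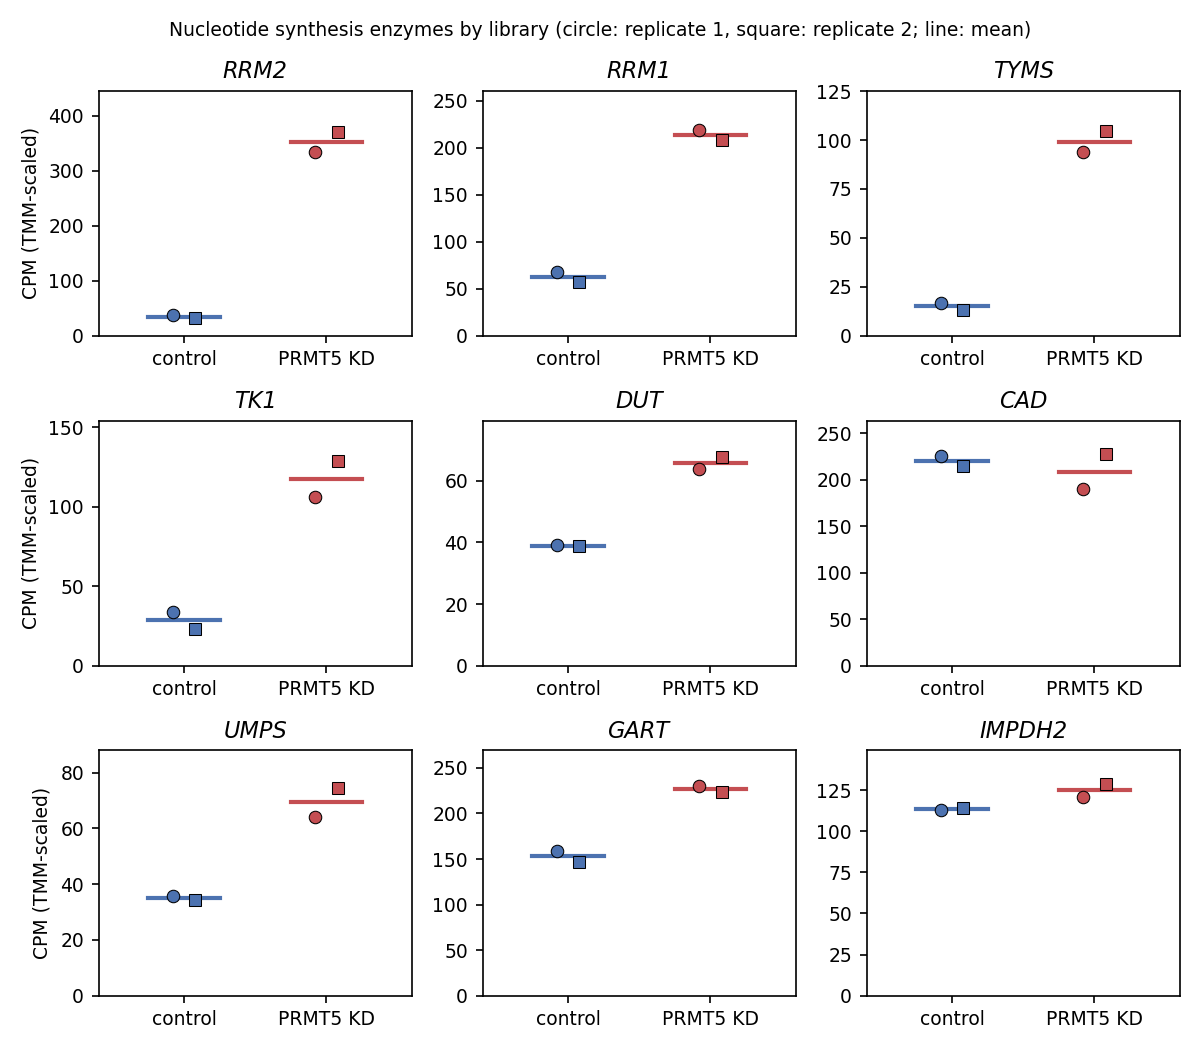
Level of each of the 9 members in TMM-scaled CPM, from 0, with 1 point per library (circle, replicate 1; square, replicate 2) and a line at the mean of the 2 libraries of each group. The groups lie apart for 8 genes (in one direction or the other this held for 80.5% of all genes tested), by the most for RRM2, and for CAD the control libraries fall between those labelled PRMT5 KD.

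RRM2, the small subunit that carries the radical of ribonucleotide reductase, lies on chromosome 2 (10120698 to 10211725, plus strand). It had 1489 and 1578 counts in control against 15858 and 17728 under the knockdown label. In CPM these were 37.6 and 31.5 against 333 and 371, means of 34.6 ± 4.30 and 352 ± 26.5 (SD, n = 2 each). Both control libraries were far below both others, and the log2 fold change was 3.35 (SE 0.15, FDR = 0.000145 in edgeR). Of the genes tested, 99.5% had a lower log2 fold change. The tables list C2orf48, now merged with RRM2 in the annotation, as a separate name.

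RRM1, the large subunit, which holds the active site and the allosteric sites, lies on chromosome 11 (4094707 to 4138932, plus strand). Its 4 libraries stood at 68.1 and 56.8 CPM in control and at 219 and 208 CPM under the label. The groups did not overlap, and the log2 fold change was 1.77 (SE 0.13, FDR = 0.000324 in edgeR).
Per length, RRM2 was at 0.533 and 0.535 of RRM1 in the control libraries and at 1.47 and 1.72 of RRM1 in the others. Thus the order of both subunits was reversed between the groups: RRM1 lay above RRM2 in both control libraries and below it in both libraries with the PRMT5 KD label. With union exon lengths, which for RRM2 include C2orf48, the ratios were 0.256 and 0.257, then 0.704 and 0.825, so the crossing of 1 depends on the length used while the change does not. A change in log2 ratio of 1.57 belongs to both.

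RRM2B, the other small subunit, which is no member of the set, did not follow RRM2. It had 71.2 and 81.9 CPM in control and 78.4 and 72.7 CPM under the label, with overlapping groups. The log2 fold change was -0.02, with a 95% interval from -0.31 to 0.27. Per length, RRM2 ran at 0.774 and 0.564 of RRM2B in control and at 6.23 and 7.47 times RRM2B in the other libraries. SAMHD1, which breaks dNTPs down, was at 113 and 81.1 CPM in control and 122 and 153 CPM under the label and was not called (log2 fold change 0.50, FDR = 0.0703 in edgeR). It lay at the threshold and was called higher under several alternatives, among them DESeq2 (0.51, adjusted p = 0.0371) and the length and GC correction (0.77, FDR = 0.0165 in edgeR).

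TYMS, thymidylate synthase and the target of fluoropyrimidines, lies on chromosome 18 (657653 to 673578, plus strand). Control libraries had 16.9 and 13.2 CPM and the others 94.0 and 104 CPM. These did not overlap, and the log2 fold change was 2.72 (SE 0.16, FDR = 0.000222 in edgeR). ENOSF1 overlaps TYMS on the opposite strand, and whether counting used the strand is not given in the sources used here. Its level went the other way, from 51.5 and 45.4 CPM to 39.3 and 31.7 CPM, without a call (log2 fold change -0.45, FDR = 0.0401 in edgeR). TYMSOS, also antisense, had 6 and 10 control counts against 32 and 43.

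TK1, the cytosolic thymidine kinase, lies on chromosome 17 (78174091 to 78187233, minus strand). It stood at 34.1 and 22.9 CPM in control, the widest control spread of the members for its level, and at 106 and 129 CPM under the label. Groups stayed apart, and the log2 fold change was 2.05 (SE 0.22, FDR = 0.00108 in edgeR). TK2, the mitochondrial thymidine kinase, had 69.1 and 74.6 CPM in control and 59.1 and 53.9 CPM in the others, below the fold threshold (log2 fold change -0.35, FDR = 0.0408 in edgeR). Per length TK1 was 1.66 and 1.03 times TK2 in control and 6.06 and 8.05 times TK2 under the label. DTYMK, which phosphorylates the dTMP made by TYMS and TK1, was called higher at 20.2 and 18.9 against 31.9 and 35.1 CPM (log2 fold change 0.78, FDR = 0.00320 in edgeR).

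DUT, the dUTPase that keeps uracil out of DNA, lies on chromosome 15 (48331011 to 48343373, plus strand). Its control libraries, at 39.1 and 38.7 CPM, were nearly equal, and those with the knockdown label were at 63.7 and 67.8 CPM. Its change of 0.76 on the log2 scale (SE 0.11, FDR = 0.00196 in edgeR) was smaller than that of RRM1. The 95% interval ran from 0.50 to 1.02 for DUT and from 1.46 to 2.09 for RRM1. Gene-level counts do not separate the nuclear and mitochondrial forms of DUT, which have different starts.

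**Figure D2:**
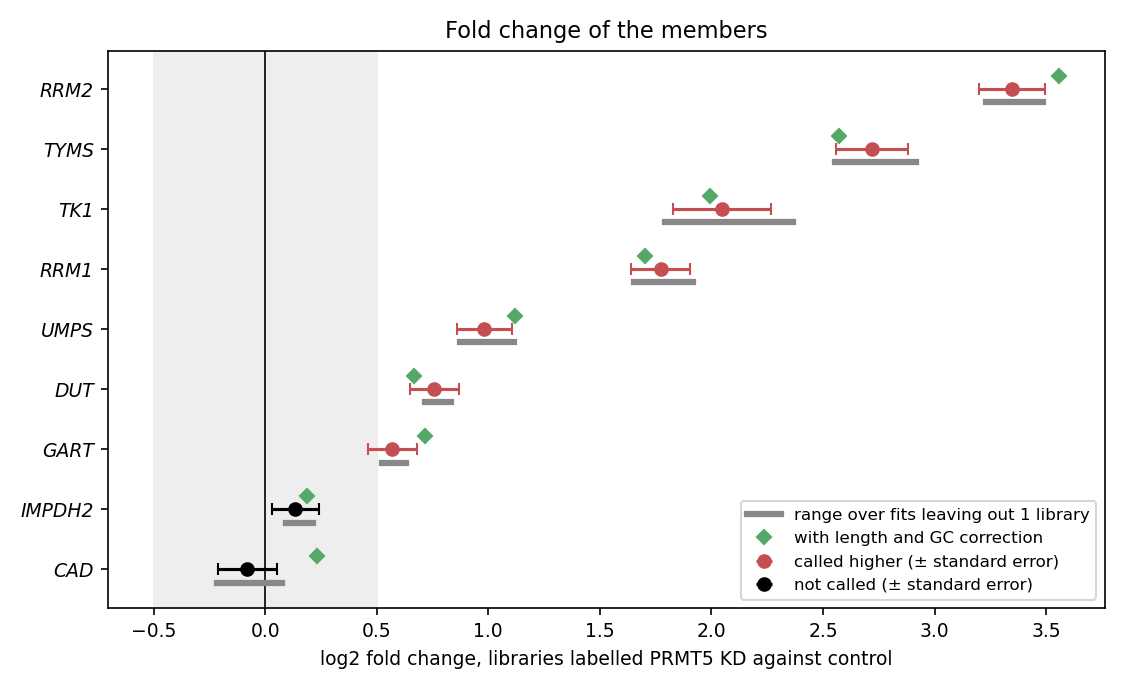
Log2 fold change of each member, libraries labelled PRMT5 KD against control, with its standard error (circles), its range over the 4 fits that each left out 1 library (grey bars) and its value corrected for length and GC (diamonds). The grey band marks changes under 0.5, and RRM2 at 3.35 and CAD at -0.08 are the ends of the order.

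CAD, the protein with the first 3 activities of pyrimidine synthesis, lies on chromosome 2 (27217369 to 27243943, plus strand) and was the most abundant member by CPM in control. It had 226 and 215 CPM in control and 189 and 227 CPM under the label. The groups overlapped, and the log2 fold change was -0.08 (SE 0.13, FDR = 0.631 in edgeR) with a 95% interval from -0.40 to 0.24. Its sign was not stable: the value was 0.10 on total counts alone, 0.23 after the length and GC correction and 0.076 without PRMT5 KD replicate 1, none of them called.

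UMPS, which carries out the last steps to UMP, lies on chromosome 3 (124730433 to 124749273, plus strand). It had 35.9 and 34.4 CPM in control and 64.2 and 74.5 CPM in the others. Both groups were apart, and the log2 fold change was 0.98 (SE 0.12, FDR = 0.00126 in edgeR). Its level per length was 0.174 and 0.175 of CAD in control and 0.371 and 0.359 of CAD under the label, so the members of the pyrimidine route did not keep one ratio.
Of the other 3 pyrimidine genes, DHODH, the mitochondrial enzyme between CAD and UMPS, was called higher from a low level, 4.07 and 4.44 against 7.94 and 8.59 CPM (log2 fold change 0.96, FDR = 0.00561 in edgeR). DHODH lost its call when either control library was left out (FDR = 0.0582 without control replicate 1 and 0.0523 without control replicate 2, in edgeR), while its log2 fold change stayed at 0.90 and 1.03. CTPS1, the CTP synthase of proliferating cells, was called higher at 62.8 and 45.6 against 147 and 159 CPM (2.83-fold, FDR = 0.00101 in edgeR). CTPS2, its isozyme, had a log2 fold change of 0.32 with a 95% interval from -0.09 to 0.73 and was not called, though it was on total counts alone (0.50).

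GART, which catalyses 3 steps of the purine ring, lies on chromosome 21 (33503931 to 33543491, minus strand). It was at 159 and 147 CPM in control and at 230 and 224 CPM under the label. The groups did not overlap, and with 0.57 as log2 fold change (SE 0.11, FDR = 0.00625 in edgeR) it was the called member nearest to the fold threshold. Without control replicate 2 the value was 0.52 and the FDR 0.0754, so the call was lost. SON, which overlaps the gene on the opposite strand, had 703 to 778 CPM in control and 689 and 705 CPM in the others (log2 fold change -0.09, not called).

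IMPDH2, the rate-limiting enzyme of guanine nucleotide synthesis, lies on chromosome 3 (49024325 to 49029447, minus strand). It had 113 and 114 CPM in control and 121 and 129 CPM under the label. The libraries did not overlap, as in 39.9% of all genes tested in the upward direction, but its change of 0.14 on the log2 scale (SE 0.11, FDR = 0.316 in edgeR) was not called, with a 95% interval from -0.12 to 0.39. IMPDH1, a close paralog whose reads the estimates may have split with it, had 43.0 and 49.5 CPM in control and 35.01 and 38.2 CPM in the others and was not called (log2 fold change -0.34, FDR = 0.0616 in edgeR).

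By level per length, the order in control was IMPDH2 (68.4 and 69.3 RPKM), GART (47.8 and 44.3), CAD (31.0 and 29.5), TK1 (23.8 and 15.99), RRM1 (21.7 and 18.1), DUT (18.2 and 18.1), RRM2 (11.5 and 9.68), TYMS (10.5 and 8.19) and UMPS (5.40 and 5.17). TK1, RRM1 and DUT overlapped one another there, as did RRM2 and TYMS. Under the PRMT5 KD label RRM2 came first (102 and 114 RPKM), followed by TK1 (74.3 and 90.0), IMPDH2 (73.2 and 78.1), GART (69.3 and 67.4), RRM1 (69.6 and 66.2), TYMS (58.3 and 64.7), DUT (29.8 and 31.7), CAD (26.0 and 31.2) and UMPS (9.66 and 11.2). Here TK1 overlapped IMPDH2, GART overlapped RRM1, and DUT overlapped CAD. On canonical lengths RRM2 thus moved from the seventh place to the first, and CAD from the third to the eighth. These places depend on the length used. With union exon lengths RRM2 stayed below RRM1 under the label, at 0.704 and 0.825 of it.
Together the 9 members took 0.0689% and 0.0630% of the counts on genes tested in control, and 0.147% and 0.167% under the label.

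**Figure D3:**
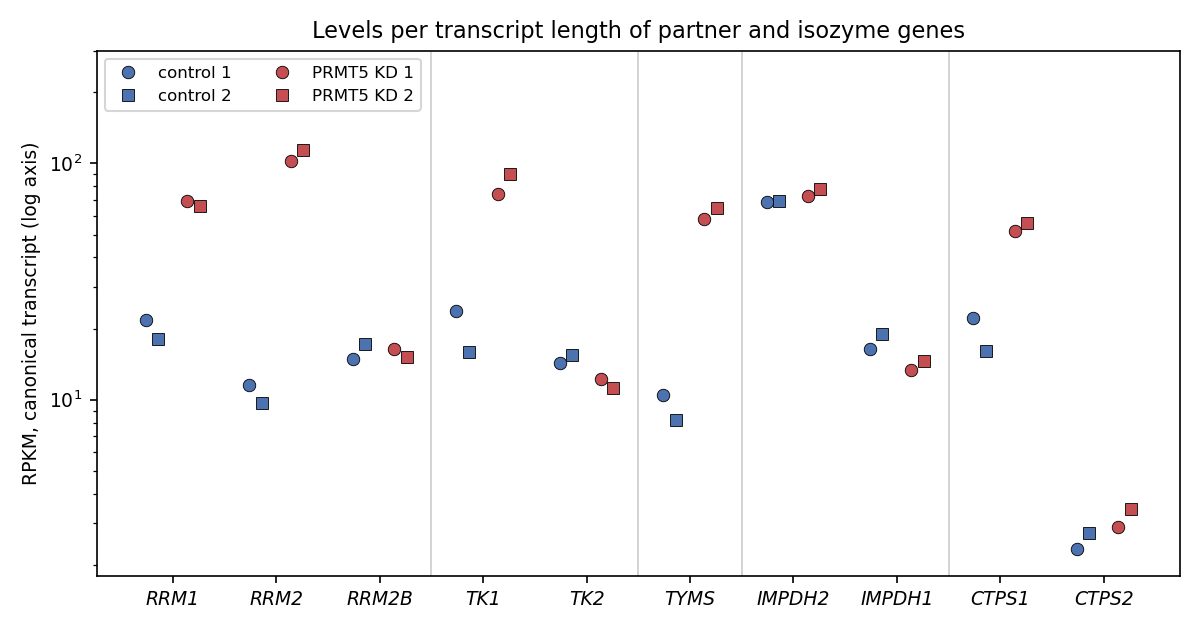
Level per length (RPKM on the canonical transcript, logarithmic axis) of members and of their partners or isozymes in each of the 4 libraries, with grey lines between the enzyme families. RRM1, RRM2, TK1, TYMS and CTPS1 were called higher under the PRMT5 KD label, at 102 and 114 RPKM for RRM2. RRM2B, TK2, IMPDH2, IMPDH1 and CTPS2 were not called.

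The rest of nucleotide metabolism was covered by 7 lists with 83 further genes, of which 71 passed the filter. Of these, 27 were called higher and 9 lower, while 35 were not called, and the median log2 fold change of the 71 was 0.40. Of the 11895 genes tested, 21.2% were called higher and 24.4% lower, against which the counts of each list below are to be read. On total counts alone, 38 were called higher and 4 lower, and without control replicate 2 the counts were 19 and 3.

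De novo purine synthesis had the largest share of called genes among the lists of more than 3 genes, with 9 of 12 tested genes higher, 1 lower and a median of 0.70. PRPS1 and PRPS2, which make the PRPP that starts the route, were at 26.2 and 24.5 against 57.8 and 67.1 CPM, and at 13.6 and 14.3 against 39.0 and 41.3 CPM, log2 fold changes of 1.30 and 1.53. PAICS, a bifunctional enzyme of the middle steps, followed at 133 and 126 against 271 and 299 CPM (1.14). PFAS (0.89), PPAT (0.77), ADSL (0.73), GUK1 (0.67), GMPS (0.56) and ATIC (0.54) were also called higher, with FDR values from 0.00237 for PPAT to 0.00810 for ATIC in edgeR's test. ATIC and GMPS lost their calls when either control library was left out, GUK1 without control replicate 1 and PFAS without control replicate 2, and ATIC also without PRMT5 KD replicate 2. ADSS1, the muscle-type adenylosuccinate synthase, was called lower (-1.72) from a low level, while ADSS2, the common isozyme, was not called (0.13). The called genes thus cover steps before and after that of GART, while the step of IMPDH2 had no call in either isozyme.

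Among partners of the reductase and enzymes of the dNTP pool, 6 of 17 tested genes were called higher and 1 lower, with a median of 0.26. The 6 were DTYMK and the kinases DCK (1.29), NME1 (1.25) and CMPK2 (2.75), together with DCTPP1 (1.27) and NUDT1 (0.92), which hydrolyse unwanted or oxidised dNTPs. DCK, which salvages deoxycytidine, stood at 23.8 and 22.4 against 56.7 and 56.0 CPM. CMPK2, a mitochondrial kinase known as interferon-induced, had control libraries that lay far apart, at 84.1 and 28.5 CPM, against 294 and 465 CPM. Its call was lost when either library with the PRMT5 KD label was left out, with no filter on low counts and over all gene names, and that of NUDT1 when either control library was left out. NME4, a mitochondrial nucleoside diphosphate kinase, was called lower (-0.66), a call lost on total counts alone and without control replicate 2. NME1 and NME2 are neighbours with a joint transcript, so how reads were divided between them is uncertain, and NME2 was not called (0.06).

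In the folate cycle, which supplies one-carbon units to TYMS and to purine synthesis, 5 of 16 tested genes were called higher and 3 lower, with a median of 0.10. Among those called higher were MTHFD2L (1.92), MTHFD1 (0.93), MTHFD2 (0.89) and the folate carrier SLC19A1 (0.51). The folate transporter SLC46A1 (-0.57) was among those called lower. Without control replicate 2, 3 were higher and 0 lower, and MTHFD2 was among the calls lost. SLC19A1 and SLC46A1 lost their calls when either control library was left out, SLC19A1 also with the replicate block (0.49) and without PRMT5 KD replicate 2 (0.25), and SLC46A1 also on total counts alone (-0.39), after the length and GC correction (-0.32) and without PRMT5 KD replicate 1 (-0.42). After that correction SLC19A1 was at 1.02. SHMT1, which passes the one-carbon unit on for thymidylate, passed the FDR but not the fold threshold (-0.49, FDR = 0.0359 in edgeR), though SHMT1 was called without PRMT5 KD replicate 2 (-0.66), and SHMT2 stood at 0.29 without a call.

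Purine salvage and breakdown held 4 genes called higher and 3 lower of 12 tested, with a median of 0.48, and 3 of 12 lower is near the share over all genes. PNP, which cleaves purine nucleosides, was at 25.9 and 25.8 against 114 and 126 CPM (log2 fold change 2.22). HPRT1 (1.13), NT5E, which encodes CD73 (1.08), and APRT (0.52) were the others called higher. AK1 (-0.65), AMPD2 (-0.61) and NT5C2 (-0.60) were called lower. On total counts alone none of the 3 was called. After the length and GC correction AMPD2 (-0.21) and NT5C2 (-0.42) were not called, nor was APRT (0.47). Without control replicate 2 AK1, AMPD2 and APRT lost their calls, and without control replicate 1 NT5C2 and APRT did. In pyrimidine salvage and breakdown 1 of 8 tested genes was called, TYMP, the thymidine phosphorylase, at 60.9 and 62.9 against 177 and 198 CPM (3.03-fold). Of 3 nucleoside transporters tested, SLC29A2 was called lower, at 4.24 and 4.40 against 0.252 and 0.188 CPM (-4.28), while SLC29A1, the main equilibrative transporter, had 0.43 and was not called, but was called at 0.61 on total counts alone and at 0.60 without PRMT5 KD replicate 1.

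**Figure D4:**
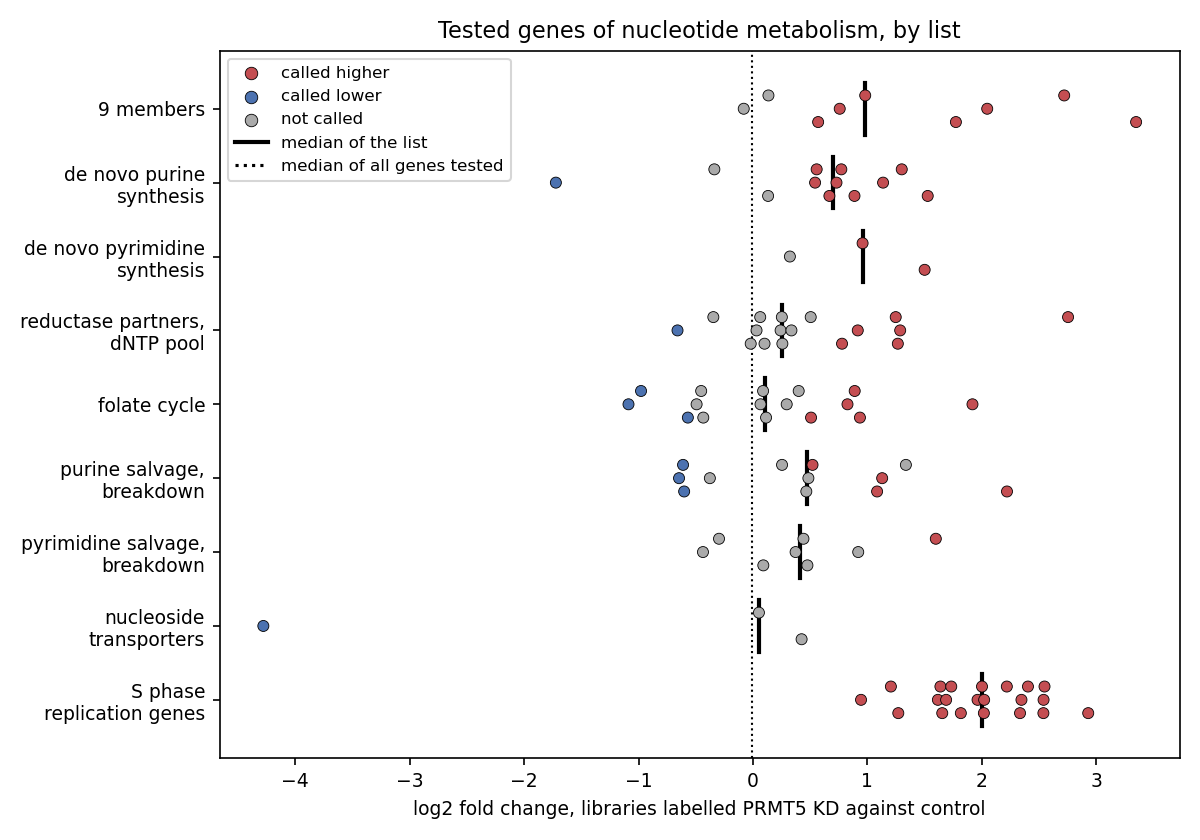
Log2 fold change of each tested gene of the members, of the 7 other lists of nucleotide metabolism and of S phase replication genes, coloured by call, with the median of each list (black bar) and of all genes tested (dotted line). The members have a median of 0.98 and the replication genes of 2.002, while the folate and transporter lists have medians of 0.10 and 0.05.

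Genes of the DNA replication machinery were also higher under the PRMT5 KD label. All 21 tested (MCM2 to MCM7, PCNA, CDC6, CDT1 and others) were called higher, with log2 fold changes from 0.94 to 2.93 and a median of 2.002. RRM2 lay above that range and TYMS, TK1 and RRM1 within it, whereas UMPS (0.98) was at its lower end and DUT, GART, IMPDH2 and CAD lay below it. The list was described with earlier results on cell cycle genes known, and its part in the members' values was not tested.
Among transcription factors known for these promoters, E2F1 (2.29), E2F2 (3.13), E2F8 (2.47), E2F4 (0.79), E2F3 (0.53), MYC (0.80) and MAX (0.64) were called higher. E2F3 (0.49) and MYC (0.59) lost their calls without control replicate 2. NFYA (-0.18), NFYB (0.20) and NFYC (0.15), the subunits of the CCAAT-binding factor, were not called, nor were E2F7, ATF4 and RB1.

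The genes whose pattern was most like that of RRM2, by the distance between centred log2 CPM over the 4 libraries, were the histone genes H2BC11 (0.142) and H4C15 (0.235) and the potassium channel gene KCNQ5 (0.259). With 2 libraries per group this distance depends largely on the size of the fold change. On the log2 scale that was 3.26 for H2BC11, 3.36 for H4C15 and 3.24 for KCNQ5, against 3.35 for RRM2. Histone genes are near-identical copies, so the counts of any one are uncertain.

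Fold changes in these libraries fell with gene length: the median log2 fold change was 0.24 in the tenth of genes with the shortest exons and -0.29 in the tenth with the longest. Corrected for length and GC content, the same 7 members were called, RRM2 at 3.56, TYMS at 2.57, TK1 at 1.99, RRM1 at 1.70, UMPS at 1.12, GART at 0.71 and DUT at 0.67, and IMPDH2 (0.19) and CAD (0.23) were not.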

How the data were processed

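The members and gene lists were chosen with earlier results of these data known. The authors deposited estimated counts per gene symbol, not normalized, in 1 table per library. The submitters' processing notes name FastQC, Trim Galore, STAR, Salmon and DESeq2 on GRCh38, whereas the study's methods give STAR, FeatureCounts and protein-coding genes. The labels describe transfected shRNA plasmids and the methods lentiviral particles. The tables have 29744 entries, and 28 date-like names (0.150% to 0.161% of counts) were dropped. GENCODE release 44 (GRCh38) gave positions and biotypes, found by symbol for 21877 of 29655 names. A further 1526 names were matched by synonym and 1147 by gene number. Counts were rounded, and the test covered the 11895 protein-coding genes that reached 0.5 RPKM, on union exon length, in each library of one group or the other, all members among them. edgeR 4.0.16 in R 4.3.3 gave TMM factors and robust quasi-likelihood tests with Benjamini-Hochberg adjustment. Standard errors came from the fold change and F. Levels per length used the canonical transcript, a choice made after the data were seen. Alternatives were DESeq2 1.42.0, other scalings, filters and gene sets, non-robust dispersion, a replicate block, splines with 4 degrees of freedom for length and GC, a fold threshold of 1 and each library left out. The test was checked on simulated data. Named genes were the members, PRMT5, called pathway genes, partners and isozymes of members, and the 3 genes most like RRM2. Factors, markers, overlapping genes, ADSS2, NME2, SHMT2 and SLC29A1 fall outside that rule and were named after their values were seen. Some genes of the lists are counted but not reported here by name. Promoter sequences are from RefSeq, and IMPDH2 had no entry in that table. Replicates differed beyond sampling noise, with chi-square per degree of freedom of 52.3 in control and 127 under PRMT5 KD. Depth was at least 52185289 counts per library, and precision was set by 2 libraries per group.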

Additional observations from a re-analysis of the deposited data

How the results depend on the processing

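The 7 calls among the members were made under every other test, scaling, filter, dispersion, block and correction tried, at 7 higher and 0 lower, and at 6 to 7 higher with each library left out. GART lost its call without control replicate 2 (0.52, range 0.52 to 0.63 over the 4 fits). At a fold threshold of 1, 4 members were called, RRM1, RRM2, TYMS and TK1. CAD, never called, changed sign on total counts alone (0.10), with the length and GC correction (0.23, and 0.23 with the replicate block added) and without PRMT5 KD replicate 1 (0.076, range -0.21 to 0.076). The cause was not tested.

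Calls over all genes were 2523 higher and 2898 lower. They ranged from 1366 to 2762 and from 1748 to 2961 with each library left out, lowest without control replicate 2, and were 1032 and 1529 at a threshold of 1. Total counts alone moved the median over all genes, on the log2 scale, from -0.01 to 0.17 and made 61.5% of the calls higher, against 46.5%. DESeq2 shared 5373 of the 5421 calls.

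Of the other pathway genes, 27 and 9 were called, with 19 to 30 higher and 3 to 11 lower when a library was left out, 4 lower on total counts alone, and 13 higher and 3 lower at a threshold of 1. By list, a threshold of 1 gave 3 higher for de novo purine synthesis, 1 for de novo pyrimidine synthesis, 1 higher and 1 lower for the folate cycle, and 0 lower for purine salvage and the dNTP pool. Total counts alone gave 1 transporter, 7 purine salvage genes and 4 pyrimidine salvage genes higher, and 0 lower for purine salvage and the dNTP pool. No filter on low counts and filterByExpr each gave 7 higher for purine salvage and 2 for pyrimidine salvage, and all gene names 1 transporter and 2 pyrimidine salvage genes. The correction for length and GC gave, also when the replicate block was added, 1 purine salvage and 2 dNTP pool genes lower and 2 pyrimidine salvage genes higher. With 1 library left out, the ranges were 1 to 2 higher for de novo pyrimidine synthesis, 3 to 5 higher and 0 to 4 lower for the folate cycle, 0 to 1 higher for transporters, 1 to 4 lower for purine salvage, 1 to 3 higher for pyrimidine salvage and 0 to 1 lower for the dNTP pool. The lower ends for the folate cycle, purine salvage and the dNTP pool came without control replicate 2, the lower end for de novo pyrimidine synthesis when either control library was left out, and the upper ends for transporters and pyrimidine salvage without PRMT5 KD replicate 1 and 2.

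Libraries with the same number had a correlation of deviations of -0.101 and share only a number. The replicate block gave 2404 higher and 2781 lower over all genes, and the crossed pairing, chosen after seeing the data, 2545 and 2942, with 7 members higher in both. Leaving out 1 library leaves a lone sample that is assumed to vary like the other group.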
